A study of Mus musculus with 6 samples.

Results

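The transcript levels of 7 genes for variant histones and of 3 genes that serve histone mRNA were compared between RSL3-treated and DMSO-treated N2a cells. The variant genes were H2afx, H2afz, H2afv and H2afy of the H2A family, H3f3a and H3f3b for histone H3.3, and the linker histone gene H1f0. The processing genes were Slbp, Npat and Lsm11. They were chosen by gene symbol, and all 10 were found among the 11609 mRNA genes of the deposited tables. Each symbol occurred in a single row, and each gene passed the filter on low values.

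Most histone mRNA is made during S phase from clustered, intronless genes and ends in a conserved stem-loop in place of a poly(A) tail. SLBP binds that stem-loop, the U7 small nuclear ribonucleoprotein with its subunit LSM11 positions the cut that forms the end, and NPAT, a target of cyclin E and its kinase, drives transcription of the clusters. Variant histones are made throughout the cell cycle, mostly from genes with introns and poly(A) tails, and serve chromatin in cells that no longer divide, such as neurons.

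N2a is a mouse neuroblastoma line. All 6 libraries came from N2a cells differentiated with retinoic acid at 10 µM for 96 h in medium with 2% serum, of which 3 were then given RSL3 at 5 µM for 24 h and 3 the solvent DMSO. RSL3 inhibits GPX4, the enzyme that reduces lipid peroxides, and induces ferroptosis. The labels call the cells neurons, state no pairing, and leave unsaid whether replicates were grown as separate cultures, so p-values measure the difference against a spread that may be technical. Read depth cannot be recovered from FPKM (fragments scaled to transcript length and to library size) and is unknown.

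RSL3 replicate 1 stood apart, at 26.2 on the first principal component of the tested mRNAs, against 1.25 and 7.35 for the other RSL3 libraries and -13.2 to -9.46 for the DMSO libraries. Each fold change of the 10 genes is therefore also given without it. Of 10 markers of neuroblasts and neurons all were listed, among them Tubb3 at 115 FPKM with RSL3 and 116 FPKM with DMSO, while Th was under 1 FPKM in both group means. Of 7 microglial, 8 astrocyte or oligodendrocyte and 6 fibroblast markers, 1, 1 and 2 were listed. The 16 liver markers summed to between 19.4 and 34.7 FPKM with RSL3 and between 77.3 and 112 FPKM with DMSO, and all 13 that were tested fell. The lncRNAs Gm26917 and Gm42418, which overlap ribosomal RNA sequence, summed to between 26639 and 33129 FPKM with RSL3 and between 18793 and 22979 FPKM with DMSO. The part of these shifts in the results below was not tested. A lower level in these bulk samples may come from fewer cells that express a gene or from less of its RNA per cell, which cannot be told apart.

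Letters of the histone stem-loop after the stop codon separated H2afx from the other 9 genes. The letters of the histone stem-loop were searched on the sense strand as a run of 16 in which 10 are fixed: it opens with GG, closes with CC, holds CTT after 2 free letters and AG before the last 2 free letters, and has a T between free letters in the middle. They occurred in the longest annotated protein-coding transcript of H2afx and in that of no other member. Over all 21901 protein-coding genes in GENCODE M21 they occurred in 0.584%, and among the 65 measured replication-dependent histone genes (symbols beginning with Hist and a digit) in 44. Of the 45 whose annotated transcript has at least 70 bases after the stop codon, 40 (88.9%) held them, so most of those without the letters have a short annotated end. The site of H2afx is shown with those of the 3 replication-dependent genes that had a site and the highest mean FPKM. Capitals mark the 16 letters of the stem-loop, whose 6 stem positions pair fully in all 4.
H2afx: ccacaaaGGCCCTTTTAAGGGCCaccacct
Hist2h2aa1: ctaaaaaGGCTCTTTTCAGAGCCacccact
Hist2h2aa2: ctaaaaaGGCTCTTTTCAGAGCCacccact
Hist1h2ab: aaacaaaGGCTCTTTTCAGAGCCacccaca
In GRCm38 the H2afx stretch lies at chr9:44335233-44335262 on the plus strand, and its capitals begin 46 bases after the stop codon, as they do in Hist1h2ab (chr13:23751565-23751594, plus strand). In Hist2h2aa1 (chr3:96246025-96246054, plus strand) and Hist2h2aa2 (chr3:96239777-96239806, minus strand) the distance was 58 bases. After the stem-loop the H2afx transcript runs on for 822 bases and holds ATTAAA, a poly(A) signal, in its last 50 bases, while those of the other 3 genes end after 35, 35 and 11 bases. H2AX is known to be made both as a stem-loop RNA and as a longer polyadenylated RNA, and 1 FPKM value per gene does not separate these forms.

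Poly(A) signals were common among the members. AATAAA or ATTAAA stood in the last 50 bases of the longest transcript of 7 of the 10 genes, all but H2afy, H3f3b and Npat, and of 72.2% of all protein-coding genes. Only H2afx and H1f0 had a single exon among the 10, and the number of exons in the others ran from 4 to 18. At 62.3% the GC content of the H2afx transcript was the highest of the 10, and the other 9 lay between 40.3% and 53.8%.

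**Figure D1:**
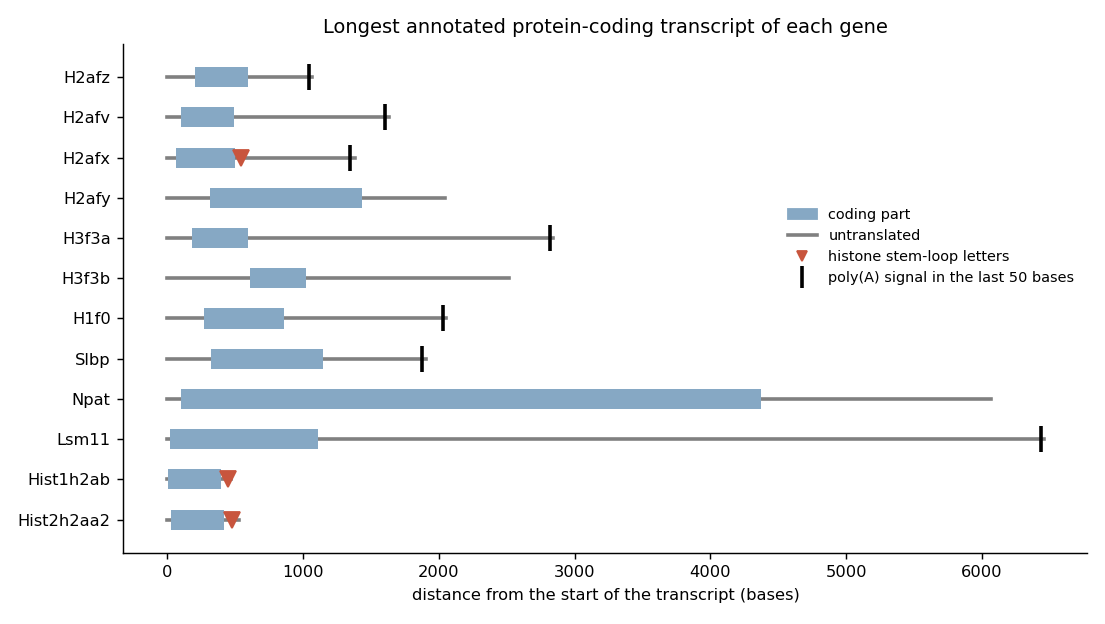
Longest annotated protein-coding transcript of the 10 genes and of 2 replication-dependent histone genes, to scale, with distance from the transcript start in bases on the horizontal axis. Blue boxes are coding parts, triangles mark the stem-loop letters and black ticks a poly(A) signal in the last 50 bases. H2afx is the only member with a triangle, at base 547 of 1384, and it also has a tick near its end.

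Among the variant genes, 2 fell with RSL3, and among the processing genes none passed the test. In limma, on log2(FPKM + 1) with Benjamini-Hochberg adjustment over 10590 tested mRNAs, 2 of the 7 variant genes, H2afx and H2afv, fell at an adjusted p under 0.05 and 0 rose. Of all tested genes 3.92% fell and 2.46% rose under the same rule, 6.38% in all. The libraries of the 2 groups did not overlap, with RSL3 lower, for 5 of the 7 variant genes, which was the case for 19.6% of all tested genes; counting either direction it was 33.0%. All 7 variant fold changes were below 0, as were those of 5977 of the 10590 tested genes, and H2afz and H3f3a changed sign under some alternatives. The variant genes had a median log2 fold change of -0.27, against -0.031 over all tested genes. None of the 3 processing genes passed in limma, and their median log2 fold change was 0.0032. An unadjusted p under 0.05 was found for 5 of the 7 variant genes and 0 of the 3 processing genes, where 24.1% of all tested genes had one. Over all genes 261 rose and 415 fell, a share of 38.6% higher, which became 51.5% after quantile normalization. Without RSL3 replicate 1, 3 variant genes fell (H1f0 was added), where 7.16% of all tested genes fell in that fit.

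**Figure D2:**
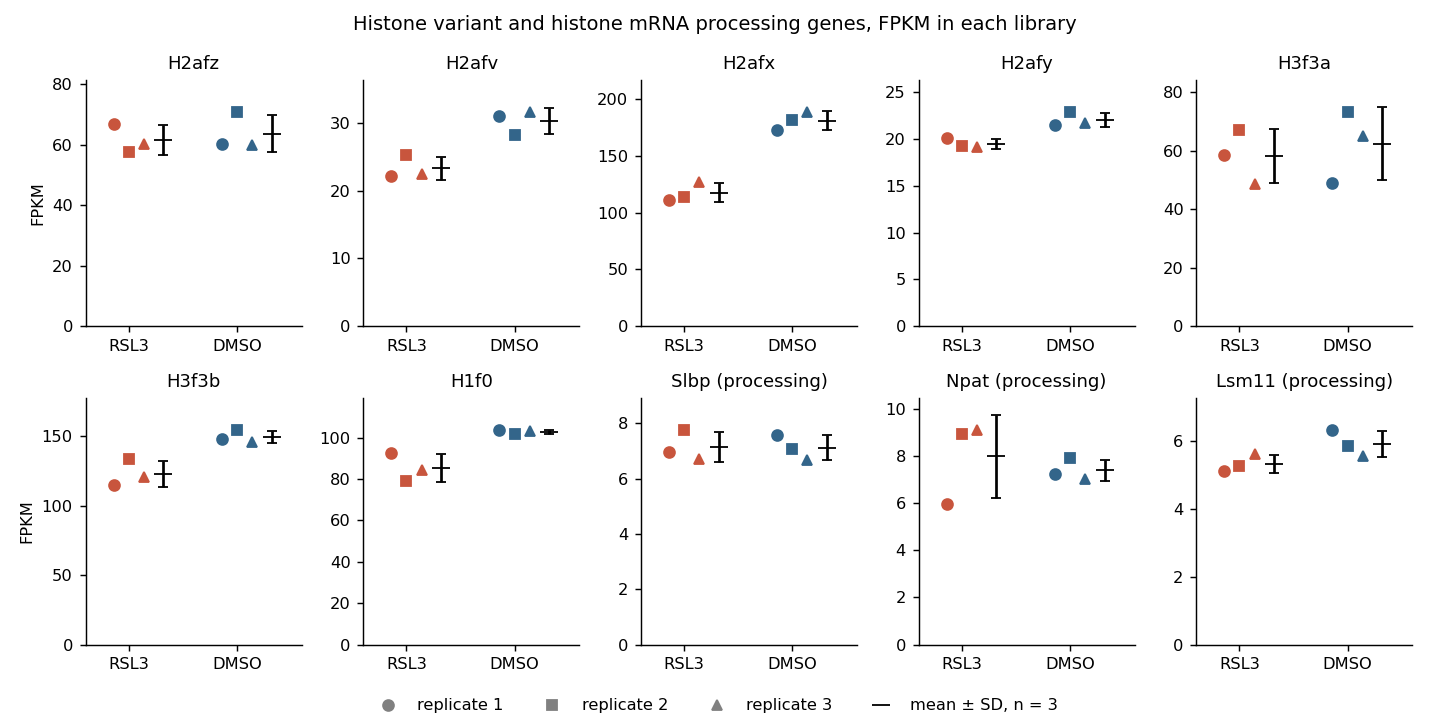
FPKM of each of the 10 genes in every library, with RSL3 left of DMSO; symbols are replicate numbers and the black mark beside them is the mean ± SD of 3 libraries. The RSL3 libraries of H2afx, H2afv, H2afy, H3f3b and H1f0 all lie below their DMSO libraries, and those of H2afz, H3f3a, Slbp, Npat and Lsm11 overlap with them.

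Per length, the variant genes were expressed at higher levels than the processing genes in every library. With RSL3 the order of mean FPKM was H3f3b, H2afx, H1f0, H2afz, H3f3a, H2afv, H2afy, Npat, Slbp and Lsm11. With DMSO H2afx stood first and H3f3b second, and the order below them was the same. The libraries of H3f3b and H2afx overlapped with RSL3 but not with DMSO. H2afz and H3f3a overlapped in both groups, as did Npat and Slbp, so their order is not resolved, while no other neighbours in the order overlapped.

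H2afx encodes H2A.X, the H2A variant that is phosphorylated around DNA double-strand breaks. The gene (ENSMUSG00000049932.3, chromosome 9, 44334694 to 44336077, plus strand) stood at 111, 114 and 127 FPKM with RSL3, against 173, 182 and 189 FPKM with DMSO. Every RSL3 library lay far below every DMSO library, by more than the spread within either group. The group means were 117 ± 8.43 FPKM with RSL3 and 181 ± 7.94 FPKM with DMSO (SD, n = 3 each). On the log2 scale the fold change was -0.62 ± 0.071 (SE), with a 95% interval from -0.79 to -0.46 and an adjusted p of 0.00542 in limma. It was -0.59 without RSL3 replicate 1 (adjusted p = 0.00557), and H2afx passed in all 15 alternative fits, with log2 fold changes between -0.70 and -0.49. Of 10590 tested genes, 166 (1.57%) had a lower fold change.

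The replication-dependent histone genes, whose stem-loop H2afx shares, were lower in the same libraries. They summed to between 9472 and 11176 FPKM with RSL3 and between 17079 and 18086 FPKM with DMSO, which was 4.73% to 5.28% of all mRNA FPKM with RSL3 and 7.59% to 8.10% with DMSO. Of 65 tested, 57 fell and 0 rose, with a median log2 fold change of -0.74, and 54 had a lower fold change than H2afx. The median was -0.75 in the 44 with the stem-loop letters in the annotated transcript and -0.74 in the 21 without them. Most of those 21 have a short annotated end, so their lack of the letters may reflect the annotation and not the RNA. Of the 3 genes printed beside H2afx, Hist2h2aa2 averaged 292 FPKM with RSL3 and 542 FPKM with DMSO (log2 fold change -0.90, adjusted p = 0.00401 in limma) and Hist1h2ab 264 FPKM with RSL3 and 508 FPKM with DMSO (-0.96, adjusted p = 0.00733). Hist2h2aa1, at 465 FPKM with RSL3 and 632 FPKM with DMSO, did not pass (-0.37, adjusted p = 0.434). Hist2h2aa1 and Hist2h2aa2 are near-identical copies, so how their reads were divided is uncertain. Stretches of 50 bases shared with other genes made up 6.14% of the H2afx transcript, among them H2afj and Hist1h2a genes, and the sources used here do not say how such reads were assigned. Whether library preparation captured RNA without poly(A) tails equally in both groups was not tested. The protocol lists a poly(A) module as the means of removing rRNA, so it is unclear which selection was used and how fully RNA without a poly(A) tail was retained.

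By the highest Pearson correlation of log2(FPKM + 1) over the 6 libraries, the genes most like H2afx in pattern were Hist1h3i (0.997), Eif3b (0.997) and Gtpbp1 (0.996). The same measure, for the processing gene with the largest fold change, Lsm11, gave Txnrd2 (0.979), Prdm10 (0.979) and Arl5b (0.972). These values describe 6 points that share the 2 groups.

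Promoters from RefSeq (GRCm38.p6; 250 bases before to 50 after the start) were matched for 9 of the 10 genes. Those of the H3.3 and H2A.Z genes are shown because each pair makes the same or nearly the same protein while, as described next, H2afv and H3f3b had RSL3 libraries below all DMSO libraries and H2afz and H3f3a did not. All are printed 5' to 3' along the gene, and capitals mark CCAAT or, where it lies on the other strand, ATTGG.
H3f3a: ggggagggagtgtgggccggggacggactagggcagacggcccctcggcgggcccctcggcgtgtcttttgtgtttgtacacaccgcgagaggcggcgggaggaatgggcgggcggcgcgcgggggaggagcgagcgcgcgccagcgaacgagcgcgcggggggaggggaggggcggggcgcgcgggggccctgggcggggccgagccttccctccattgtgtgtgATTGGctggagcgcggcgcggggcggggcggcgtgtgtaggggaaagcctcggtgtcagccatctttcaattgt
H3f3b: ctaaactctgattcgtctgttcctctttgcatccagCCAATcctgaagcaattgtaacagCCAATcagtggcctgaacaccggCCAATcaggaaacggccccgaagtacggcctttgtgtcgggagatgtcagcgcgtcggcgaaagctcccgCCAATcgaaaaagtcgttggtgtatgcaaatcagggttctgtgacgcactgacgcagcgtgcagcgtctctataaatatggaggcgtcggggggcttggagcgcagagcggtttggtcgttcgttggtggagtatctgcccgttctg
H2afz: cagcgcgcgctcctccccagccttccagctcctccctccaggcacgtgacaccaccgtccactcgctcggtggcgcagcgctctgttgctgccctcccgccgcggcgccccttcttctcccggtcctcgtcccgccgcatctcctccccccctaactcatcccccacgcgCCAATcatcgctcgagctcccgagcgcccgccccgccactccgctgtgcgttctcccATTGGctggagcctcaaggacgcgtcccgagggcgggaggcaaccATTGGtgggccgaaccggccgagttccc
H2afv: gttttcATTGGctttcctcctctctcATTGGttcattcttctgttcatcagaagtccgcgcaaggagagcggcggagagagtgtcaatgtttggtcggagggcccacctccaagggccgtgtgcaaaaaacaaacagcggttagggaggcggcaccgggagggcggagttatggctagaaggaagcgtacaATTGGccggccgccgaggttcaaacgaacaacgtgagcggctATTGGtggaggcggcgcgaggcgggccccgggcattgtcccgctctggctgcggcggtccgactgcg
These windows are chr1:180813556-180813855 for H3f3a (minus strand), chr11:116024455-116024754 for H3f3b (minus strand), chr3:137864237-137864536 for H2afz (plus strand) and chr11:6444394-6444693 for H2afv (minus strand). The RefSeq start of H3f3b lies inside the longer GENCODE gene. CCAAT occurred 1, 4, 3 and 4 times in these windows, in the order printed. At least 1 CCAAT on either strand was present for 6 of the 9 matched genes and in 37.4% of all 32851 promoter windows, and 4 or more in 1.06% of them. H3f3b alone among the 9 held TATAAA on either strand, beginning 27 bases before the start, where 13.6% of all windows hold it. The letters TTTNNCGC, which cover the E2F consensus, were found on either strand in none of the 9 windows and in 5.17% of all. None of these matches is evidence that a factor binds, and their relation to the response was not tested. Exact permutation tests of the log2 ratio within each pair, described below, gave p = 0.5 for H3.3 and 0.2 for H2A.Z. The smallest possible p was 0.1. H3f3b itself did not pass in limma (adjusted p = 0.0604).

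H2afz and H2afv encode near-identical forms of H2A.Z, a variant placed at promoters and regulatory elements. H2afv (ENSMUSG00000041126.16, chromosome 11, 6427229 to 6444443, minus strand) stood at 22.2, 25.3 and 22.5 FPKM with RSL3, against 31.1, 28.1 and 31.6 FPKM with DMSO. The groups did not overlap, and RSL3 replicate 2 and DMSO replicate 2 came closest to each other. H2afv fell by 0.36 ± 0.079 (SE) on the log2 scale (adjusted p = 0.0421 in limma; 95% interval from -0.55 to -0.18), and by 0.33 without RSL3 replicate 1 (adjusted p = 0.0408). The call was lost, with an adjusted p of up to 0.181, without any single DMSO library or RSL3 replicate 3, and also under median-ratio scaling (0.0614) and quantile normalization (0.0813) and without the variance trend (0.0559). In those 4 fits without a library, 145 to 196 of all 10590 tested genes were called, against 676 with all libraries, and the log2 fold change of H2afv stayed between -0.41 and -0.33.

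H2afz (ENSMUSG00000037894.13, chromosome 3, 137864487 to 137866922, plus strand) stood at 66.9, 57.5 and 60.1 FPKM with RSL3, against 60.3, 70.8 and 59.9 FPKM with DMSO. The groups overlapped and the highest value was that of DMSO replicate 2. The log2 fold change was -0.048 ± 0.090 (SE), with a 95% interval from -0.26 to 0.16 and an adjusted p of 0.794 in limma, and it was -0.11 without RSL3 replicate 1 (adjusted p = 0.414). Of the H2afz transcript, 33.2% of the stretches of 50 bases also occurred in 4 annotated pseudogenes, so its reads may have been split, while H2afv shared none. H2afz made up 75.1%, 69.5% and 72.7% of the summed H2A.Z FPKM with RSL3, against 66.0%, 71.6% and 65.4% with DMSO. These shares overlapped between the groups. The log2 ratio of H2afz to H2afv averaged 1.40 ± 0.20 with RSL3 and 1.07 ± 0.23 with DMSO (SD, n = 3 each; exact permutation p = 0.2, two-sided, where the smallest possible p is 0.1).

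H2afy encodes macroH2A1, an H2A variant with a large macro domain that is found on silent chromatin such as the inactive X chromosome. H2afy (ENSMUSG00000015937.15, chromosome 13, 56073619 to 56136361, minus strand) stood at 20.1, 19.2 and 19.1 FPKM with RSL3, against 21.5, 22.9 and 21.7 FPKM with DMSO. The RSL3 libraries lay just below the DMSO libraries, without overlap. A log2 fold change of -0.17 ± 0.062 (SE) did not pass (adjusted p = 0.154 in limma), nor did -0.19 without RSL3 replicate 1 (adjusted p = 0.0667). It passed with length and GC trends removed (-0.21, adjusted p = 0.0497).

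A circular RNA from the H2afy locus was listed too, the only circRNA named by coordinates that lay inside a member gene. It joins an exon end to an upstream exon start across 32358 bases (chromosome 13, 56096124 to 56128481, minus strand). Its back-splice reads, recovered from the deposited values, numbered 0, 0 and 0 with RSL3, against 1, 4 and 2 with DMSO. The 0 of 19372 reads with RSL3 allows up to 1.55 reads per 10000 (3 counts, an approximate one-sided 95% bound). The 7 of 23782 reads with DMSO gave 2.94 per 10000 (exact two-sided Clopper-Pearson 95% interval 1.18 to 6.06). A two-sided limit for RSL3 would be higher. These bounds cover counting error only, and the difference between the groups was not tested. The 1754 circRNAs with a circBase name could not be placed and were not used here.

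**Figure D3:**
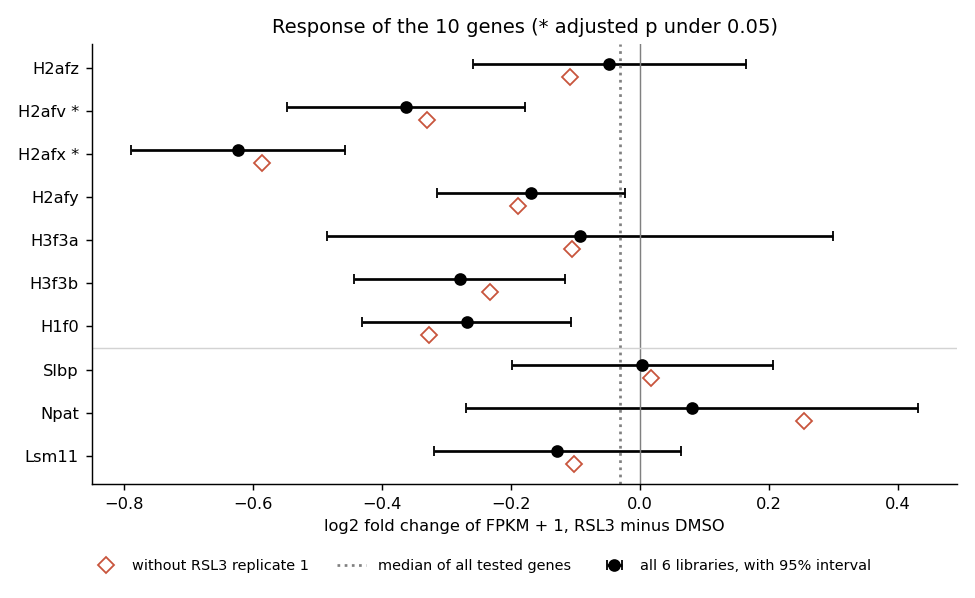
Log2 fold change of FPKM + 1, RSL3 minus DMSO, for the 10 genes, with 95% intervals from limma over all 6 libraries (black) and the value without RSL3 replicate 1 (open diamonds). A star marks an adjusted p under 0.05. H2afx and H2afv lie farthest to the left, at -0.62 and -0.36. The intervals of the variant genes H2afz and H3f3a and of Slbp, Npat and Lsm11 cover 0.

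H3f3a and H3f3b encode the same protein, histone H3.3, which is placed into chromatin also outside S phase. Their coding stretches of 411 bases were identical at 316 positions (76.9%), with no identical run longer than 23 bases. H3f3b (ENSMUSG00000016559.14, chromosome 11, 116021912 to 116027962, minus strand) stood at 115, 134 and 121 FPKM with RSL3, against 148, 154 and 146 FPKM with DMSO. All RSL3 libraries lay below all DMSO libraries. The log2 fold change of -0.28 ± 0.070 (SE) missed the threshold (adjusted p = 0.0604 in limma; 95% interval from -0.44 to -0.12), also without RSL3 replicate 1 (-0.23, adjusted p = 0.0511). It passed without RSL3 replicate 2 (-0.34, adjusted p = 0.0305) and with length and GC trends removed (-0.21, adjusted p = 0.0421), and it was -0.13 after quantile normalization (adjusted p = 0.260).

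H3f3a (ENSMUSG00000060743.12, chromosome 1, 180800832 to 180813943, minus strand) stood at 58.7, 67.1 and 48.7 FPKM with RSL3, against 48.9, 73.3 and 65.1 FPKM with DMSO. The libraries overlapped and spread widely within each group. The log2 fold change was -0.093 ± 0.17 (SE), with a 95% interval from -0.49 to 0.30 (adjusted p = 0.780 in limma), and -0.11 without RSL3 replicate 1 (adjusted p = 0.749). A change of the size seen in H3f3b lies inside that interval. Stretches of 50 bases found in 38 annotated pseudogenes made up 14.9% of its transcript. For H3f3b, stretches found in 3 other genes, of which 2 are pseudogenes, made up 8.40%. H3f3aos, a lncRNA annotated as antisense to H3f3a, was listed at 0.749, 0.940 and 0.637 FPKM with RSL3, against 0.624, 0.881 and 0.488 FPKM with DMSO, which overlap. The sources used here do not say whether the counting used strand, and annotated antisense genes also overlap exons of H2afx (141 bases), H2afy (265), H3f3a (638), H1f0 (163) and Slbp (380).

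Within its family H3f3a supplied 33.8%, 33.5% and 28.7% of the summed H3.3 FPKM with RSL3, against 24.8%, 32.2% and 30.8% with DMSO. The log2 ratio of H3f3a to H3f3b averaged -1.09 ± 0.19 with RSL3 and -1.28 ± 0.28 with DMSO (SD, n = 3 each; exact permutation p = 0.5, two-sided). Summed H3.3 transcripts stood at 181 ± 16.8 FPKM with RSL3 and 212 ± 15.3 FPKM with DMSO, and summed H2A.Z transcripts at 84.8 ± 3.70 FPKM with RSL3 and 93.9 ± 4.37 FPKM with DMSO (SD, n = 3 each). The 7 variant genes together held 487, 495 and 483 FPKM with RSL3, against 586, 633 and 616 FPKM with DMSO. The sum of all mRNA FPKM was also lower with RSL3, at 200135, 213765 and 211874, against 225295, 224970 and 220605 with DMSO. As a share of all mRNA FPKM the 7 genes held 0.243%, 0.232% and 0.228% with RSL3, against 0.260%, 0.281% and 0.279% with DMSO. H2afx alone gave 22.9%, 23.0% and 26.3% of the 7-gene sum with RSL3, against 29.5%, 28.7% and 30.6% with DMSO. These H2afx shares did not overlap. Without H2afx the other 6 variant genes summed to 371 ± 13.4 FPKM with RSL3 and 431 ± 19.0 FPKM with DMSO.

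**Figure D4:**
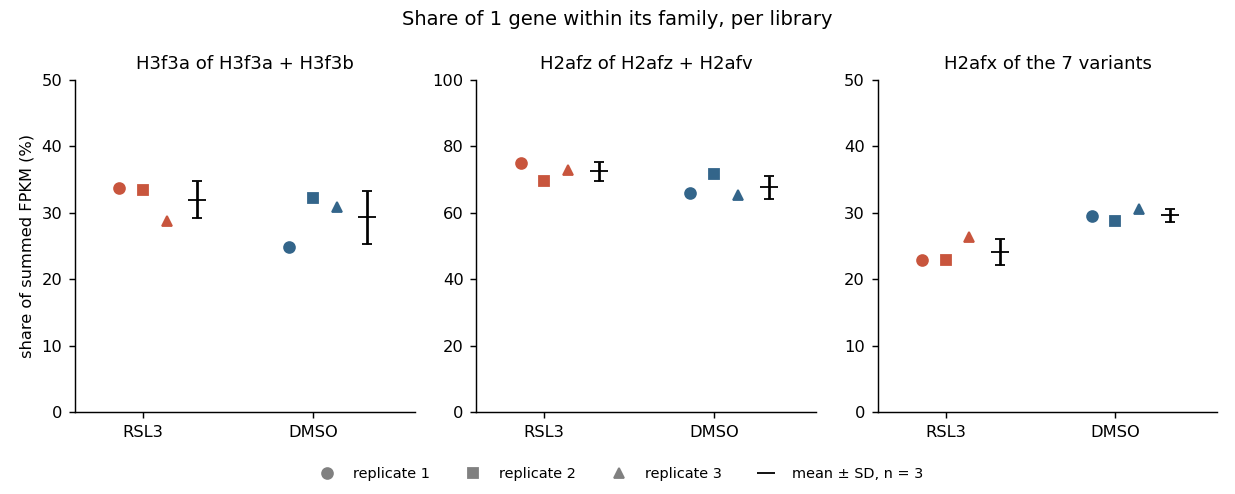
Share of summed FPKM in percent, per library, that H3f3a gave of H3.3, H2afz of H2A.Z and H2afx of the 7 variant genes, with RSL3 left of DMSO; black marks are the mean ± SD of 3 libraries, and the middle panel has its own vertical scale. The H2afx shares with RSL3 (22.9% to 26.3%) lie below those with DMSO (28.7% to 30.6%), and the other shares overlap between the groups.

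H1f0 encodes the linker histone H1.0, which accumulates in cells that have left the cell cycle and differentiated. The deposited identifier of H1f0 is ENSMUSG00000096210.1, while GENCODE M21 lists ENSMUSG00000096210.2 at chromosome 15, 79028450 to 79030504, plus strand. H1f0 stood at 92.4, 79.0 and 84.5 FPKM with RSL3, against 103, 102 and 103 FPKM with DMSO. The DMSO libraries lay close together and above all RSL3 libraries. The log2 fold change of -0.27 ± 0.069 (SE) missed the threshold over all libraries (adjusted p = 0.0656 in limma) and passed without RSL3 replicate 1 (-0.33, adjusted p = 0.0120). It also passed with length and GC trends removed (adjusted p = 0.0176), and over all alternatives the adjusted p ran from 0.0120 to 0.227.

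Slbp encodes the stem-loop binding protein, which accompanies replication-dependent histone mRNA from its 3' end formation to translation. Slbp (ENSMUSG00000004642.13, chromosome 5, 33634952 to 33652574, minus strand) stood at 6.97, 7.74 and 6.70 FPKM with RSL3, against 7.59, 7.07 and 6.69 FPKM with DMSO. The groups covered nearly the same range. Its fold change on the log2 scale was 0.0032 ± 0.086 (SE), and its 95% interval from -0.20 to 0.21 did not reach the -0.62 of H2afx (adjusted p = 0.989 in limma; 0.017 without RSL3 replicate 1, adjusted p = 0.907).

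Npat encodes the activator of histone gene transcription in the histone locus body. Npat (ENSMUSG00000033054.7, chromosome 9, 53537047 to 53574342, plus strand) stood at 5.97, 8.93 and 9.11 FPKM with RSL3, against 7.26, 7.92 and 7.04 FPKM with DMSO. RSL3 replicate 1 was the lowest of the 6 libraries and the other RSL3 libraries were the highest. Its log2 fold change was 0.080 ± 0.15 (SE; adjusted p = 0.789 in limma; 95% interval from -0.27 to 0.43). Without RSL3 replicate 1 it was 0.25 (adjusted p = 0.0605), against 0.080 with that library, so the value depended strongly on 1 library. No setting took Npat past the threshold.

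Lsm11 encodes a subunit found in the U7 particle and not in the spliceosome. Lsm11 (ENSMUSG00000044847.13, chromosome 11, 45928269 to 45944935, minus strand) stood at 5.11, 5.26 and 5.62 FPKM with RSL3, against 6.32, 5.87 and 5.57 FPKM with DMSO. The groups overlapped through RSL3 replicate 3 and DMSO replicate 3. Its log2 fold change of -0.13 ± 0.082 (SE) did not pass (adjusted p = 0.389 in limma), nor did -0.10 without RSL3 replicate 1 (adjusted p = 0.393), and the 95% interval ran from -0.32 to 0.064.

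Partners of the 10 genes were taken from 7 lists with 63 tested genes, of which 7 fell and 0 rose in limma, where 3.92% of all tested genes fell and 2.46% rose. Among 4 other variant histone genes, the linker variant H1fx averaged 49.4 ± 6.21 FPKM with RSL3 and 74.9 ± 1.07 FPKM with DMSO (SD, n = 3 each; log2 fold change -0.60, adjusted p = 0.0136). Cenpa, the histone H3 variant of centromeres, fell by 0.45 (adjusted p = 0.0232), and the other 2, H2afj at -0.029 and H2afy2 at -0.058, named to complete the list, did not pass. Of 9 tested genes of the histone locus body and U7 particle 2 fell, Snrpb by 0.32 (adjusted p = 0.0255) and Snrpf by 0.41 (adjusted p = 0.0264), which encode Sm proteins shared with the spliceosome. Snrpf did not pass with length and GC trends removed (-0.21, adjusted p = 0.399), under median-ratio scaling (0.0769) or after quantile normalization (0.0800), where Snrpb did not pass either (0.0540). None of 13 genes of cleavage, cap binding and histone mRNA decay passed in limma. The nearest was Cpsf3, the endonuclease of histone pre-mRNA (-0.38, adjusted p = 0.0773). Cpsf3 passed in 2 of 15 alternative fits, without RSL3 replicate 1 (-0.26, adjusted p = 0.0224) and with length and GC trends removed (-0.36, adjusted p = 0.0472). Of these 13 genes 2 had an unadjusted p under 0.05, where 24.1% of all tested genes had one.

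Among 7 cyclin and kinase genes chosen for their links to NPAT and SLBP, the mitotic kinase gene Cdk1 fell by 0.56 (adjusted p = 0.0161 in limma). Genes that place H3.3 into chromatin gave 0 calls of 9 in limma and 1 unadjusted p under 0.05, that of the chaperone gene Asf1b (-0.29, adjusted p = 0.0577). Of all tested genes 24.1% had an unadjusted p under 0.05. Asf1b passed in 3 of 15 alternative fits, among them the fit without RSL3 replicate 1 (-0.33, adjusted p = 0.0165). Of 12 genes of H2A.Z exchange, Anp32e, whose product removes H2A.Z, fell by 0.56 (adjusted p = 0.0262). Of 9 general histone chaperone genes, Ssrp1 of the FACT complex fell by 0.28 (adjusted p = 0.0332). Ssrp1 did not pass after quantile normalization (-0.16, adjusted p = 0.138), under median-ratio scaling (0.0560) or without the variance trend (0.0646). An unadjusted p under 0.05 was found for 6 of 12 genes of H2A.Z exchange and 4 of 9 of the locus body and U7 particle. The same held for 3 of 7 cyclin and kinase genes, 3 of 9 general chaperone genes and 2 of 4 other variant genes. Median log2 fold changes of the 7 lists ran from -0.25 to -0.016, against -0.031 over all tested genes. Without RSL3 replicate 3, or without any single DMSO library, 0 of the 63 passed, in fits that called 145 to 196 of all 10590 tested genes. The log2 fold change of Cdk1, for example, lay between -0.58 and -0.53 there. Without RSL3 replicate 1, 14 of the 63 passed, where 12.3% of all tested genes did.

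**Figure D5:**
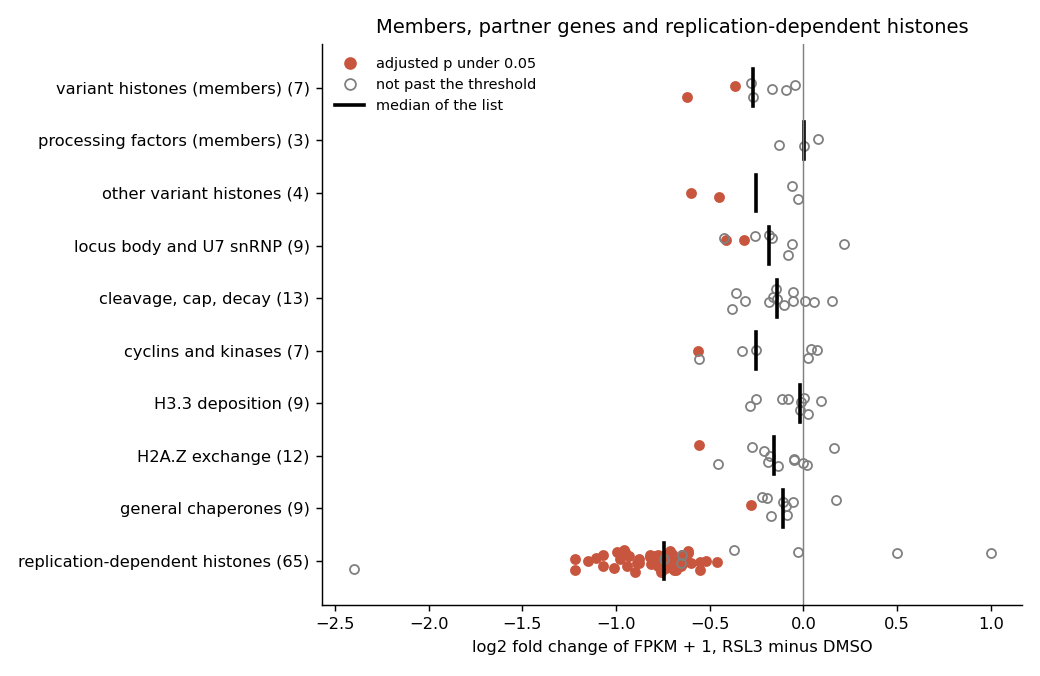
Log2 fold change of FPKM + 1, RSL3 minus DMSO, of every tested gene in the member lists, the 7 partner lists and the replication-dependent histones, with the number of genes in brackets. Filled points have an adjusted p below 0.05, open points a higher one, and black bars are list medians. The replication-dependent histones have a median of -0.74, the variant members -0.27 and the processing members 0.0032.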

How the data were processed

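Values of mRNA and lncRNA were deposited by the authors in FPKM, 1 table per library; GRCm38, StringTie 1.3.3, HISAT2 and cutadapt stand in the submitters' processing notes. The sources used here do not state the annotation release or filters. Per the labels' protocols, rRNA was removed with a poly(A) isolation module, which leaves the selection unclear, and the library kit was stranded. Deposited circRNA values carry a CPM heading but their sums differ between libraries, so they were treated as a signal; divided by the smallest value above 0 of its library, 100.0% differed from a whole number by at most 0.01, and the whole numbers were taken as reads. The total per library was 5226 to 7364 reads with RSL3 and 7179 to 9409 with DMSO. No test over circRNAs was run.

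The test between RSL3 and DMSO was limma 3.58.1 under R 4.3.3, on log2(FPKM + 1), with a mean-variance trend, for genes of at least 1 FPKM in at least 3 of 6 libraries, with Benjamini-Hochberg adjustment and a threshold of 0.05. On simulated data with the spread of each gene in these libraries, 100 genes were changed by 0.5 and 100 by 1 on the log2 scale, among 10590. This test called 59% and 86% of them. The simulated noise was independent between genes, with no shift of a whole library, so these shares may not hold for the real data. Ratios of 2 genes were compared by an exact permutation test in scipy 1.17.1, two-sided. Transcripts and positions came from GENCODE M21 (GRCm38), with the longest protein-coding transcript of each gene. Fold changes are on the log2(FPKM + 1) scale, which shrinks those of low genes. The members and lists were chosen with earlier results of these data known. All members were named; of each partner list, up to 4 genes per direction that passed, or the gene with the smallest p where none did.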

Additional observations from a re-analysis of the deposited data

How the results depend on the processing

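Of 15 alternative fits, H2afx passed in all and H2afv in 7. The 676 mRNA genes called became 253 with the replicate block and 1353 with length and GC trends removed, and ranged from 145 to 1299 without single libraries. The 2 variant histone genes called became 1 with median-ratio scaling, with quantile normalization, without the variance trend and with the replicate block (where H2afv had an adjusted p of 0.118), became 5 with length and GC trends removed, and ranged from 1 to 3 without single libraries. No variant histone gene was called higher and no processing gene was called in any of these fits. The 7 partner genes called became 4 with quantile normalization, 11 when 5 FPKM in at least 3 libraries was required, 3 with the replicate block and 13 with length and GC trends removed, and ranged from 0 to 14 without single libraries. The cause of these shifts was not tested. Fold changes of the other genes near 0 changed sign. H2afz stood at 0.040 after quantile normalization, 0.060 with length and GC trends removed and 0.031 without DMSO replicate 2. H3f3a stood at 0.026 without RSL3 replicate 3 and 0.030 without DMSO replicate 2. Slbp stood at -0.050 without RSL3 replicate 2, -0.00043 without DMSO replicate 2 and -0.035 without DMSO replicate 3. Npat stood at -0.00064 without RSL3 replicate 2 and -0.013 without RSL3 replicate 3. Without single libraries these 4 ranged from -0.11 to 0.031 (H2afz), -0.26 to 0.030 (H3f3a), -0.050 to 0.045 (Slbp) and -0.013 to 0.25 (Npat). The difference in log2 ratio, RSL3 minus DMSO, kept its sign and ranged from 0.027 to 0.30 for H3f3a to H3f3b and from 0.23 to 0.46 for H2afz to H2afv without single libraries. Between an RSL3 and a DMSO library of equal number, deviations from the group mean correlated at -0.15, 0.049 and -0.062 across genes, and 0 RSL3 libraries correlated best with the DMSO library of their own number, so the block pairs numbers only.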
